A study of Mus musculus with 7 samples.

Results

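The genes described here are 7 enzymes of heme synthesis, Alas2, Alad, Uros, Urod, Cpox, Ppox and Fech, and 2 membrane proteins that serve iron import into mitochondria, Slc25a37 and Abcb10. They were taken by gene symbol and are 9 of the 17920 genes in an RNA-seq expression table of mouse spleen after lipopolysaccharide (LPS). In wild-type spleen, 5 of the 9 fell between 90 min and 6 h after LPS, where 6.32% of all tested genes fell. GdX-deficient minus wild type was positive for all 9 at both times, as it was for 56.5% of all tested genes at 90 min and 66.2% at 6 h. At 6 h, where the GdX-deficient group is a single library, 3 of the 9 passed the test as higher, against 2.91% of all tested genes.

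Heme, the iron-porphyrin group of hemoglobin, is built from glycine and succinyl-CoA by enzymes that begin in the mitochondrion, continue in the cytosol and end in the mitochondrion, where iron is inserted. Developing red cells are its main producers in the body, and they use forms of the first enzyme and of the iron importer that other cells scarcely express. In mice the red pulp of the spleen makes red cells in adult life, more so under stress, and its macrophages break down old red cells and recycle their iron.

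The study asked how the spleen responds to LPS, a bacterial cell wall component that triggers acute inflammation, with and without GdX (Ubl4a), a ubiquitin-like protein encoded on the X chromosome. All mice were C57BL/6 by their labels, 8 weeks old, and injected intraperitoneally with LPS at 20 mg/kg. The groups were 2 wild-type and 2 GdX-/- libraries from spleens taken at 90 min, and 2 wild-type and 1 GdX-/- library at 6 h. The mutants are called GdX-/- in the genotype label and GdX-/Y in the treatment protocol, and both names are covered here by GdX-deficient. The series lists as many mice as libraries, 4 wild type and 3 mutant. All groups had received LPS, and spleens without LPS were not analysed here, which leaves every value without a baseline. Whole spleen was homogenised, so fewer cells of a type and less RNA per cell cannot be told apart.

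Values are FPKM, fragment numbers divided by transcript length and by each library's mapped total. Depth, estimated from the steps between low values, was between 18350000 and 20350000 mapped fragments per library. Globin transcripts took 7.73% to 30.9% of the FPKM sum. Ubl4a itself did not separate the genotypes at 90 min, with 5.62 and 7.50 FPKM in wild type and 4.03 and 5.69 in GdX-deficient libraries, and it read 11.9 and 14.0 against 10.6 at 6 h. Gm44504, a RefSeq gene that overlaps Ubl4a on the X chromosome and can share its reads, read 14.5 to 51.1 FPKM in the 4 wild-type libraries and 0.660 to 1.86 in the 3 GdX-deficient ones. The adult beta-globin gene Hbb-b1 read 6.70 to 13.8 FPKM in wild type and 16577 to 44998 in GdX-deficient libraries, although all mice carry the same strain label. Hbb-b2 separated the genotypes likewise, at 1.55 to 4.68 FPKM in wild type and 4059 to 11050 in GdX-deficient libraries. Hbb-bs and Hbb-bt were high in both genotypes, at no less than 14410 and 3194 FPKM in any library. Hbb-b1 has near-identical copies, so its reads may be split among them. Whether the mice differ at the beta-globin locus or at further loci was not tested. Across genes, the genotype differences were also related to transcript length (Spearman's rho 0.429 at 90 min and 0.318 at 6 h, 11180 genes). Differences between replicates of the same group were related to length too. For replicate 1 minus replicate 2, rho was -0.446 in wild type at 90 min and -0.591 in wild type at 6 h. In GdX-deficient spleen at 90 min it was -0.166. The relation is thus not particular to genotype.

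The first 4 of these enzymes act early in the pathway, Alas2 in the mitochondrion and the others in the cytosol. Alas2 is the erythroid 5-aminolevulinate synthase, which commits precursors to the pathway. Alas2 (Entrez 11656, chrX:150547417-150570622, RefSeq GRCm38.p6) stood at 346 and 385 FPKM in wild type at 90 min, 779 and 574 in GdX-deficient spleen at 90 min, 131 and 180 in wild type at 6 h, and 320 in the GdX-deficient library at 6 h. Both GdX-deficient libraries at 90 min lay above all others, and that at 6 h lay between the wild-type libraries of the 2 times. Alad, aminolevulinate dehydratase, joins a pair of 5-aminolevulinate molecules into porphobilinogen. Alad (Entrez 17025, chr4:62505984-62520063) stood at 44.0 and 50.02 FPKM in wild type at 90 min, 61.0 and 56.2 in GdX-deficient spleen, 42.7 and 31.8 in wild type at 6 h, and 54.4 in the GdX-deficient library. The 3 GdX-deficient values were above all 4 wild-type values, and the wild-type times lay close together. Uros, uroporphyrinogen III synthase, closes the porphyrin ring. Uros (Entrez 22276, chr7:133686142-133710467) stood at 18.7 and 18.4 FPKM in wild type at 90 min, 23.5 and 33.7 in GdX-deficient spleen, 9.11 in both wild-type libraries at 6 h, and 24.1 in the GdX-deficient library. The wild-type pairs were tight, and the GdX-deficient library at 6 h fell inside the range of those at 90 min. Urod, uroporphyrinogen decarboxylase, trims the ring's side chains. Urod (Entrez 22275, chr4:116989965-116994436) stood at 68.7 and 55.9 FPKM in wild type at 90 min, 80.6 and 67.0 in GdX-deficient spleen, 29.1 and 24.8 in wild type at 6 h, and 56.1 in the GdX-deficient library. It was the only one of the 9 whose genotypes overlapped at 90 min.

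The last 3 enzymes act in or at the mitochondrion. Cpox, coproporphyrinogen oxidase, works in the intermembrane space. Cpox (Entrez 12892, chr16:58670208-58680391) stood at 14.9 and 22.9 FPKM in wild type at 90 min, 38.4 and 44.2 in GdX-deficient spleen, 6.98 and 11.4 in wild type at 6 h, and 32.6 in the GdX-deficient library. All 3 GdX-deficient values were above all 4 wild-type values. Ppox, protoporphyrinogen oxidase, makes protoporphyrin IX. Ppox (Entrez 19044, chr1:171276991-171281193) stood at 23.6 and 25.8 FPKM in wild type at 90 min, 39.8 and 48.8 in GdX-deficient spleen, 12.5 and 13.6 in wild type at 6 h, and 30.1 in the GdX-deficient library. Its genotypes were again fully apart, at a 6 h GdX-deficient level above wild type at 90 min. Ppox shares 17.5% of its exon bases with B4galt3 on the other strand, and whether counting used strand is not given in the sources used here. B4galt3 read 28.9 and 38.8 FPKM in wild type and 34.1 and 31.1 in GdX-deficient spleen at 90 min, then 23.1 and 24.8 against 21.6 at 6 h. Its order over the libraries was not that of Ppox. Fech, ferrochelatase, inserts iron to complete heme. Fech (Entrez 14151, chromosome 18) stood at 42.4 and 59.4 FPKM in wild type at 90 min, 116 and 94.8 in GdX-deficient spleen, 11.1 and 22.2 in wild type at 6 h, and 51.8 in the GdX-deficient library. Its wild-type pairs were wide, with the larger gap in FPKM at 90 min and the larger ratio at 6 h. Even so, no 2 groups of the same time or genotype overlapped.

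Slc25a37 (mitoferrin 1) carries iron across the inner mitochondrial membrane of developing red cells. Slc25a37 (Entrez 67712, chr14:69241848-69285544) stood at 73.9 and 70.6 FPKM in wild type at 90 min, 117 and 144 in GdX-deficient spleen, 23.5 and 20.4 in wild type at 6 h, and 71.4 in the GdX-deficient library. The GdX-deficient library at 6 h thus lay between the wild-type libraries of 90 min. Abcb10, an inner membrane transporter of the ATP-binding cassette family, binds and stabilises Slc25a37. Abcb10 (Entrez 56199, chr8:123952459-123983122) was the lowest of the 9 in wild type, at 12.0 and 16.3 FPKM at 90 min and 3.45 and 6.44 at 6 h. GdX-deficient libraries gave 28.2 and 35.6 FPKM at 90 min and 22.8 at 6 h, all above every wild-type library.

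**Figure D1:**
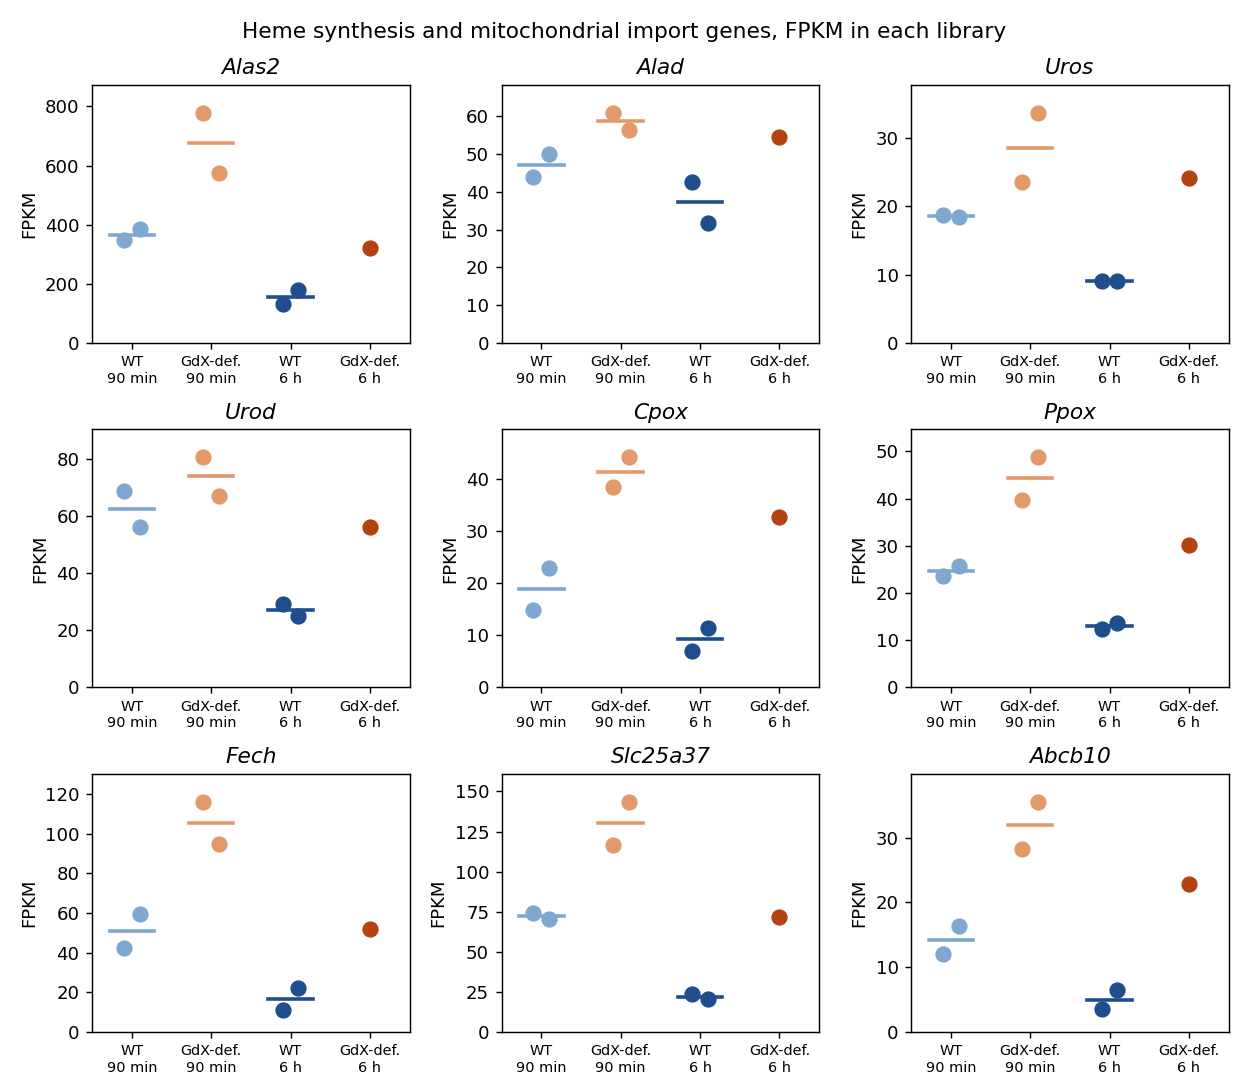
FPKM of each of the 9 genes (vertical axes, linear and starting at 0) by genotype and time after LPS (horizontal axes). Each point is a library and each bar a group mean. GdX-deficient points lie above wild type of the same time in every panel, except that Urod overlaps at 90 min.

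In wild type at 90 min, Alas2 was the most abundant of the 9 (366 ± 27.5 FPKM, SD, n = 2), 25.8 times the least abundant, Abcb10 (14.2 ± 3.04). Slc25a37 (72.2 ± 2.30) and Urod (62.3 ± 9.04) followed, then Fech (50.9 ± 12.0) and Alad (47.0 ± 4.27), whose libraries overlapped. Ppox (24.7 ± 1.51) came next, and Cpox (18.9 ± 5.66), Uros (18.6 ± 0.177) and Abcb10 overlapped in part. FPKM is per transcript length, so these levels can be set beside each other, within the limit that replicates also differed with length. At 6 h in wild type Alad (37.2 ± 7.72) ranked second behind Alas2 (156 ± 34.3), above Urod (26.9 ± 3.01) and Slc25a37 (22.0 ± 2.18). The 9 differed in how far they moved. Between the lowest and the highest library, Fech spanned 3.28 and Abcb10 3.04 on the log2(FPKM + 1) scale, against 0.92 for Alad, the flattest. Ppox stayed closest to the mean profile of the 9, with a root mean square distance of 0.13 in log2 units over the 7 libraries, and Alad lay farthest from it, at 0.51.

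Promoters of these genes were searched, as a description only, for the letters bound by GATA1, the lead transcription factor of red cell development. They were also searched for CCNCNCCC, a pattern that takes in the CACCC box bound by KLF1 and also GC-rich letters without that box. The RefSeq table (GRCm38.p6) held 9 promoter windows for 7 of the 9 genes, leaving Fech and Slc25a37 without an entry. In the 250 bases before the start, on both strands, the hexamers AGATAA and AGATAG, and likewise TGATAA and TGATAG, were found in 3 windows, of Alas2, Cpox and Uros, while 26.5% of 32851 mouse promoter windows held at least 1 of them. CCNCNCCC was found in 4 windows, of Alas2, Alad and Uros, against 45.9% of all windows. Both counts are near the shares of all windows, and a match describes letters only. The stretches from 150 to 51 bases before the start are printed for Alas2, the entry enzyme, and Cpox, which passed the test by genotype at 6 h, at chrX:150547267-150547366 and chr16:58670058-58670157, plus strand, with the reverse complement of a GATA hexamer in capitals.
Alas2: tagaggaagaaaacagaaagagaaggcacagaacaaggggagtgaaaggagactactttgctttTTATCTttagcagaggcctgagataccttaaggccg
Cpox: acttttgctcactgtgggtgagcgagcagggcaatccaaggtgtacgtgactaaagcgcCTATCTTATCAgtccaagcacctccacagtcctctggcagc
The match in Alas2 began 86 bases before the start, and the 2 in Cpox, which share a base, began 91 and 86 bases before it. The CCNCNCCC matches of Alas2 lay nearer the start, outside the printed stretch, and its window held 4 of them, partly overlapping. Of these, 3 hold the letters CACCC, and 0 of the 6 matches in Alad and 0 of the 1 in Uros do.

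The first comparison asks what changed in wild-type spleen between 90 min and 6 h after LPS. Alas2, Urod, Fech, Slc25a37 and Abcb10 fell (limma, adjusted p under 0.05), 5 of the 9 genes, where 6.32% of the 11378 genes tested fell and 10.7% changed in either direction. The iron importer Slc25a37 fell 3.20-fold on the log2(FPKM + 1) scale, by 1.68 (SE 0.25, limma adjusted p = 0.00572). Fech was 3.06-fold lower (limma adjusted p = 0.0204), Abcb10 2.61-fold (0.0316), Alas2 2.37-fold (0.0253) and Urod 2.26-fold (0.0211). Uros, Ppox and Cpox differed by -0.95, -0.87 and -0.97 in log2 with limma adjusted p of 0.0593, 0.0591 and 0.0867, and Alad by -0.34 (0.419). In all 9 genes both libraries of 6 h were below both of 90 min, as in 27.6% of all genes. The median difference of the 9 was -1.18 against 0.05 over all genes. The number past the threshold was 2 without wild-type replicate 1 of 90 min (Fech and Slc25a37, with 3.96% of all genes called) and 1 without replicate 2 (Slc25a37, 4.83%). It was 2 with no filter on low values (3.54% of all genes), 8 after quantile normalization (12.5%) and 8 with the length trend removed (22.2%). The call of Abcb10 was also lost with only the 4 wild-type libraries fitted (limma adjusted p = 0.0564) and when rescaled without globin genes (0.0663).

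Markers of several cell types were lower with these genes. Of 23 red cell markers, 19 fell in wild type, against 6.32% of all genes, and their summed FPKM went from 697 and 773 at 90 min to 218 and 265 at 6 h. Rhd, a blood group protein of the red cell membrane, fell from 45.7 and 45.5 FPKM to 6.75 and 6.84 (limma adjusted p = 0.000943). The summed FPKM of the alpha-globin genes Hba-a1 and Hba-a2 was 105380 and 77399 at 90 min and 49696 and 26555 at 6 h. For 6 B cell markers the sums were 1466 and 1326, then 468 and 469, for 6 T cell markers 357 and 302, then 154 and 131, and for 6 red pulp macrophage markers 629 and 687, then 289 and 302. Sums of 6 dividing-cell markers went from 132 and 107 to 65.5 and 68.3, and of 6 megakaryocyte markers from 190 and 174 to 135 and 101. The sums of 6 neutrophil markers, 991 and 627 at 90 min and 1004 and 683 at 6 h, are mostly S100a8 and S100a9, while Elane and Mpo, granule enzymes in the same list, fell (limma adjusted p = 0.0210 and 0.0244). No marker in these lists was at 0 in any library. The part of these cell types in the fall of the heme genes was not tested.

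The second comparison sets GdX-deficient against wild-type spleen at 90 min. Abcb10 (2.17-fold), Cpox (2.17-fold) and Fech (2.07-fold) had the largest differences, Alas2, Slc25a37 and Ppox lay between 1.75-fold and 1.83-fold, and Uros (1.49-fold), Alad (1.24-fold) and Urod (1.18-fold) were smallest. All 9 differences were positive, as were those of 56.5% of all genes, and in 8 of 9, all but Urod, both GdX-deficient libraries were above both wild-type ones, against 24.1% of all genes. None passed limma's adjusted threshold, with adjusted p from 0.551 to 0.714, where 2 genes of the whole table did (0.0176%). At an unadjusted p under 0.05, 6 were higher, against 3.16% of all genes. Their median difference was 0.83 in log2 against 0.07 over all genes. With the spread taken from the 4 libraries of 90 min alone, 3 passed, Cpox and Fech at limma adjusted p = 0.0475 each and Abcb10 at 0.0483, and 1.59% of all genes did. Without wild-type replicate 1 of 6 h 1 passed, Fech, with 1.52% of all genes, and without replicate 2 there were 2, Cpox and Fech, with 1.61%.

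Red cell markers were higher in the same libraries, with sums of 1413 and 1325 FPKM in GdX-deficient spleen against 697 and 773, and all 23 had both GdX-deficient libraries above both wild-type ones, though none passed limma's adjusted threshold (20 had an unadjusted p under 0.05). Alpha-globin sums overlapped, at 118150 and 78375 FPKM against 105380 and 77399 in wild type. Sums of 6 dividing-cell markers were 151 and 168 against 132 and 107, and of 6 neutrophil markers 917 and 4089 against 991 and 627. In the library with 4089, S100a8 and S100a9 made up 1935 and 2118 FPKM of it, and Elane and Mpo differed by -0.36 and -0.34 in log2 between the genotypes (limma adjusted p = 0.667 and 0.641). The 3 genes with the largest differences, Fech (6571 bases), Abcb10 (4306) and Cpox (3097), have longer transcripts than the 2 with the smallest, Urod (1489) and Alad (1226.5). Slc25a37 (4174 bases, 0.83 in log2) did not follow that order, being longer than Cpox and differing about as much as Alas2 (0.87) and Ppox (0.81), whose transcripts are shorter. With the length trend of each library removed, the median of the 9 at 90 min was 0.74 against 0.01 over all genes. The part of cell makeup and of transcript length in the differences was not tested further.

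**Figure D2:**
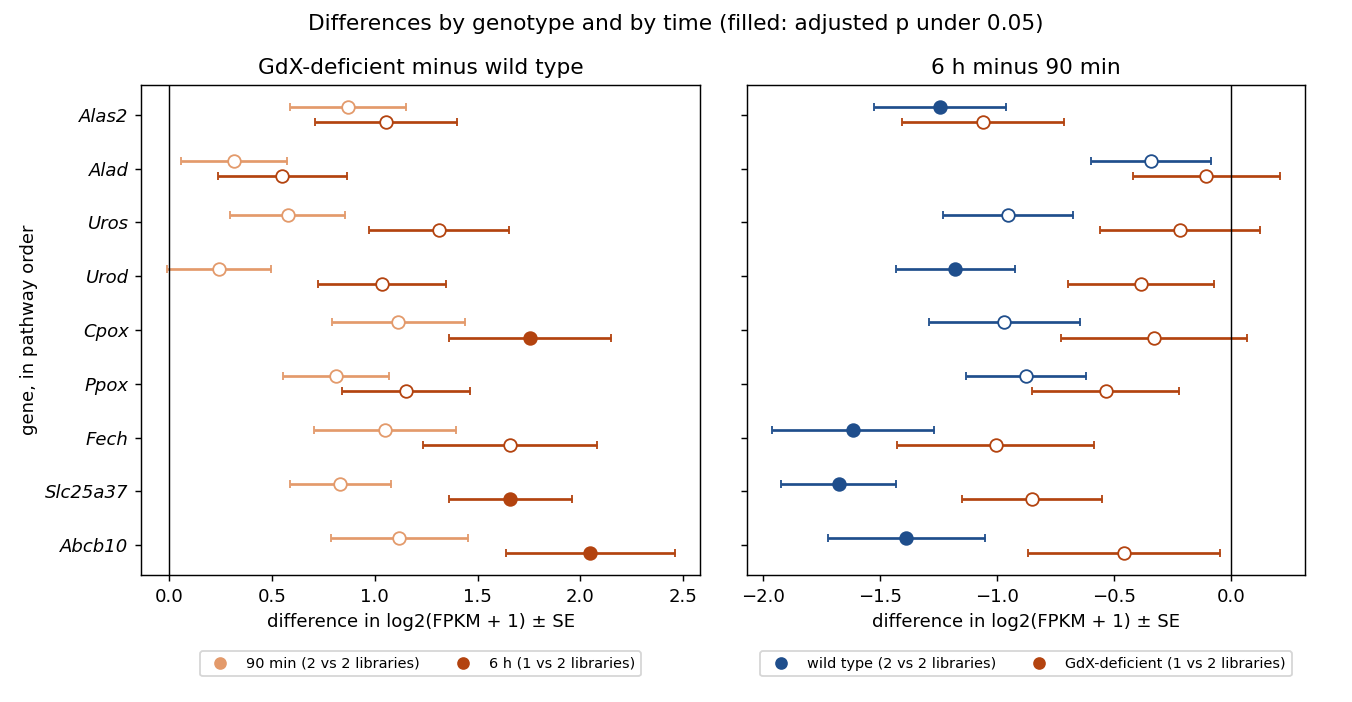
Differences in log2(FPKM + 1) with moderated standard errors (bars) for each gene, GdX-deficient minus wild type (left) and 6 h minus 90 min (right). Filled points have a limma adjusted p under 0.05, which holds for Cpox, Slc25a37 and Abcb10 by genotype at 6 h and for Alas2, Urod, Fech, Slc25a37 and Abcb10 over time in wild type.

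The third comparison is that of the genotypes at 6 h, where the single GdX-deficient library is assumed to vary like the other groups. Slc25a37, Cpox and Abcb10 were higher in it (limma, adjusted p under 0.05), 3 of 9, where 2.91% of all genes were called higher and 3.96% in either direction. Abcb10 was 4.14-fold higher (2.05 in log2, SE 0.41, limma adjusted p = 0.0355), Cpox 3.38-fold (1.76, SE 0.40, 0.0452) and Slc25a37 3.16-fold (1.66, SE 0.30, 0.0275). Fech differed as much as Slc25a37, 3.16-fold, with a larger error (SE 0.42, limma adjusted p = 0.0573). Uros (2.49-fold, adjusted p = 0.0588), Ppox (2.22-fold, 0.0640), Alas2 (2.08-fold, 0.0967) and Urod (2.05-fold, 0.0815) did not pass limma's threshold, and Alad was 1.46-fold higher (0.275). In all 9 the GdX-deficient library was above both wild-type ones, but so it was in 54.9% of all genes, and the median difference was 1.31 against 0.32 over all genes. Quantile normalization took the all-gene median from 0.32 to -0.01 and left the median of the 9 at 1.33. The calls rest on the choice of libraries, filter and scaling: 7 passed without wild-type replicate 2 of 6 h, when 26.7% of all genes did, 2 without either GdX-deficient library of 90 min (Cpox lost, limma adjusted p = 0.0599 and 0.0595, with 5.51% and 5.62% of all genes called), and 0 with no filter on low values (0.502%). Cpox was also lost with a minimum mean of 5 FPKM (limma adjusted p = 0.0520) and when rescaled without globin genes (0.0604). Removal of the length trend left 4 past the threshold, Uros (limma adjusted p = 0.0313), Ppox (0.0376), Cpox (0.0290) and Abcb10 (0.0172), with 10.7% of all genes called, while Slc25a37 went from 1.66 to 1.19 in log2 (limma adjusted p = 0.0543) and Fech from 1.66 to 1.02 (0.0719).

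At 6 h 19 of 23 red cell markers were called higher in GdX-deficient spleen, against 2.91% of all genes, their sum being 818 FPKM against 218 and 265. Rhd read 43.3 FPKM against 6.75 and 6.84 in wild type (limma adjusted p = 0.00684). The alpha-globin sum was 43126 FPKM, between the wild-type values of 49696 and 26555. B cell markers summed to 1727 FPKM against 468 and 469, T cell markers to 277 against 154 and 131, and red pulp macrophage markers to 562 against 289 and 302. Dividing-cell markers summed to 134 against 65.5 and 68.3, neutrophil markers to 2340 against 1004 and 683, and megakaryocyte markers to 161 against 135 and 101. All of these lists but alpha-globin thus stood above both wild-type libraries together with the heme genes, and their part in the result was not tested.

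**Figure D3:**
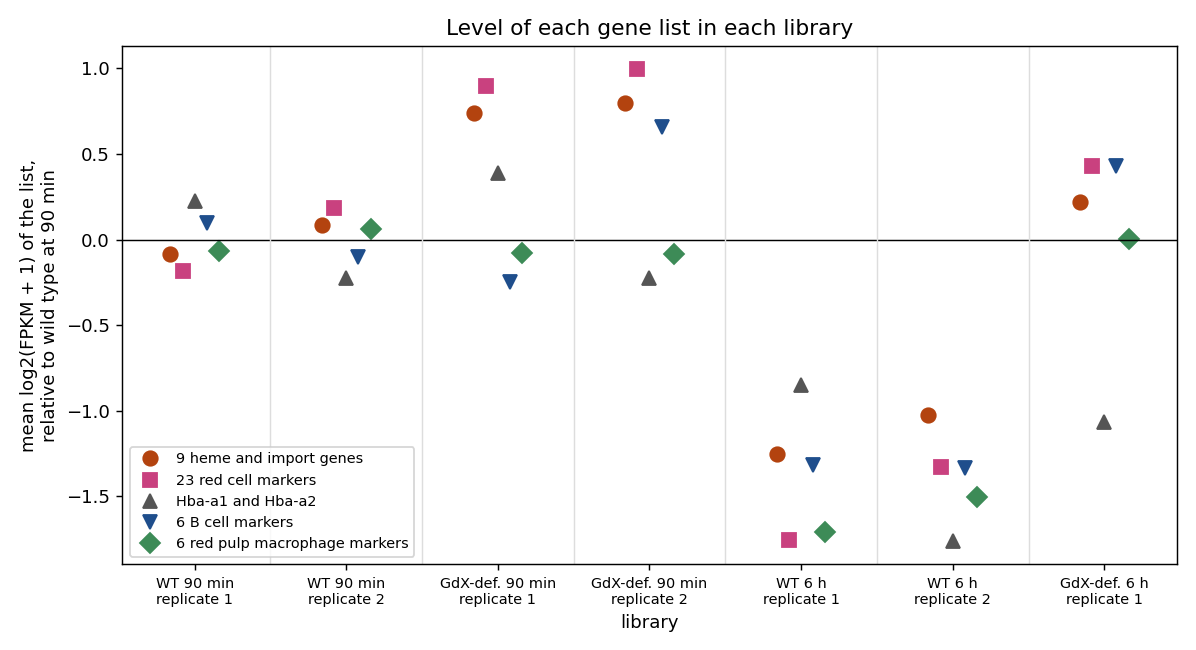
Mean log2(FPKM + 1) of each gene list in each library, relative to the wild-type mean at 90 min, for the 9 heme and import genes, 23 red cell markers, the 2 alpha-globin genes, 6 B cell markers and 6 red pulp macrophage markers. Each point is a library, and the wild-type libraries of 6 h are low for all 5 lists, while the GdX-deficient library of 6 h is low for alpha-globin.

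With both times in one additive fit, 3 GdX-deficient against 4 wild-type libraries, the genotype difference was largest for Abcb10 (1.49 in log2, SE 0.29), Cpox (1.37, SE 0.26) and Fech (1.29, SE 0.28), and smallest for Urod (0.56, SE 0.23) and Alad (0.41, SE 0.20). None of the 9 passed limma's adjusted threshold (adjusted p from 0.0915 to 0.221), where 5 genes of the table did (0.0439%), and 8 were higher at an unadjusted p under 0.05, against 17.8% of all genes. In 8 of 9 the genotypes were apart at both times, against 19.0%. For Alad, Uros, Cpox, Ppox and Abcb10 all GdX-deficient libraries were above all wild-type libraries regardless of time, 5 of 9 against 10.2% of all genes. The median was 0.95 against 0.16 over all genes. Without GdX-deficient replicate 1 of 90 min, 7 passed, all but Alad and Urod, when 14.7% of all genes did, and without wild-type replicate 2 of 90 min 4 passed, Cpox, Fech, Slc25a37 and Abcb10, when 2.13% did.

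**Figure D4:**
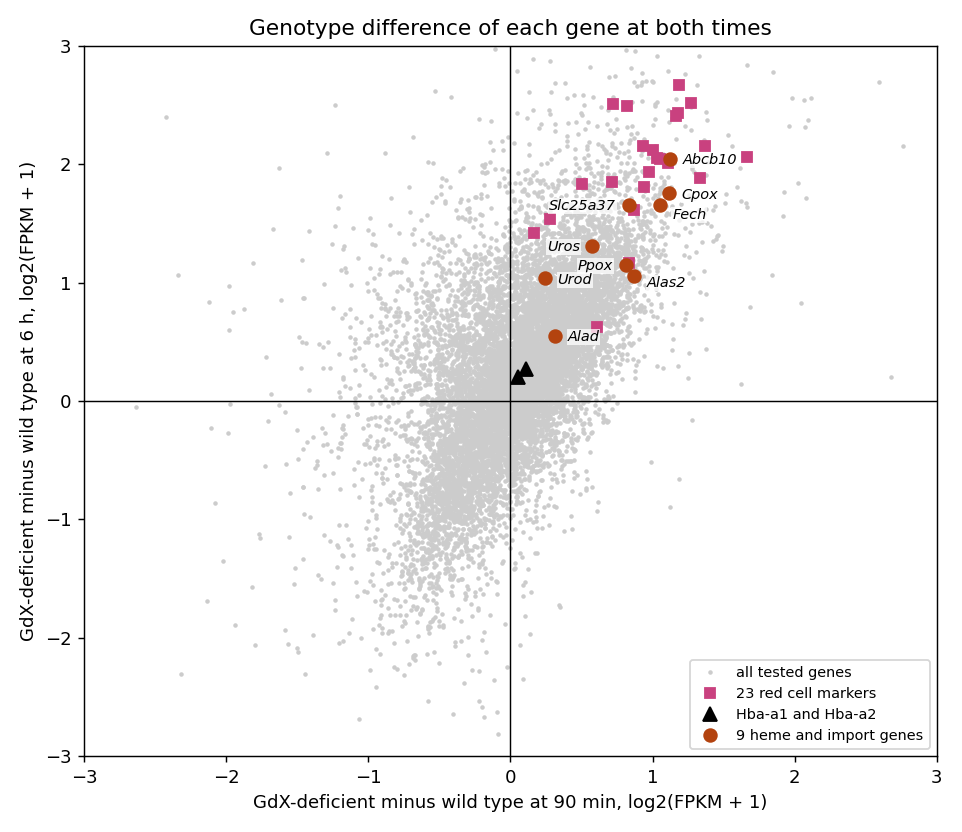
Genotype difference of each tested gene at 90 min (horizontal) and at 6 h (vertical), both in log2(FPKM + 1), with 31 genes outside the limits of 3. The 9 heme and import genes (named) and the 23 red cell markers (squares) are positive on both axes, and the 2 alpha-globin genes (triangles) lie nearer 0.

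The last comparison asks whether the change over time differed between the genotypes. In GdX-deficient spleen the 6 h library was below both of 90 min for 8 of 9 genes, all but Uros, against 15.8% of all genes. Alas2 was 2.08-fold lower (limma adjusted p = 0.385), Fech 2.01-fold (0.593) and Slc25a37 1.80-fold (0.442), and the other 6 differed by -0.10 to -0.53 in log2. No gene of the table passed limma's adjusted threshold here (0 of 11378, 910 at an unadjusted p under 0.05), and 3 of the 9 were lower at an unadjusted p under 0.05, against 2.10% of all genes. The difference between the genotypes' changes was itself tested. All 9 interaction values were positive, a smaller decrease in GdX-deficient spleen, as were 64.2% of all genes. They ran from 0.18 (SE 0.45) for Alas2 to 0.93 (SE 0.53) for Abcb10, with a median of 0.64 against 0.19 over all genes. None passed limma's adjusted threshold (adjusted p from 0.537 to 0.958) or an unadjusted p of 0.05, and 8 genes of the table passed the former (0.0703%). These values do not show that the courses are alike.

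Other genes of heme and iron handling gave calls in both directions. Among 14 further genes of heme synthesis and mitochondrial transport, at 6 h 2 were called higher in the GdX-deficient library, against 2.91% of all genes, and over time in wild type 1 rose, against 4.39% of all genes, and 2 fell, against 6.32%. Fam210b, a mitochondrial membrane protein that aids iron delivery for heme in developing red cells, read 9.76 and 11.2 FPKM in wild type and 16.5 and 17.4 in GdX-deficient spleen at 90 min, then 3.54 and 4.06 against 12.5 at 6 h. It fell over time in wild type (limma adjusted p = 0.0229) and was higher in the GdX-deficient library at 6 h (limma adjusted p = 0.0463). Clpp, the proteolytic subunit of a mitochondrial protease, rose in wild type from 20.9 and 21.4 FPKM to 65.0 and 48.8 (limma adjusted p = 0.0151). The median genotype difference of the 14 was 0.23 at 90 min and 0.44 at 6 h, against 0.07 and 0.32 over all genes.

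Genes of heme transport and degradation, 9 of them tested, included 5 that fell over time in wild type, against 6.32% of all genes. Blvrb, a biliverdin reductase, fell from 179 and 169 FPKM to 60.0 and 48.2 (limma adjusted p = 0.00572), and read 145 in the GdX-deficient library at 6 h (limma adjusted p against wild type = 0.0393), the only call of this list by genotype. Cd163, the macrophage receptor for hemoglobin bound to haptoglobin, fell in wild type from 2.32 and 3.16 FPKM to 0.220 and 0.260 (limma adjusted p = 0.00647), and read 0.260 in the GdX-deficient library at 6 h. Its genotype difference at 6 h was 0.02 in log2 (limma adjusted p = 0.966), at levels under 1 FPKM. The heme transporter Slc48a1 was 1.20 higher in log2 at 6 h (limma adjusted p = 0.0815).

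Of 13 tested genes of iron uptake, storage and sensing, Slc40a1, the iron exporter ferroportin, was the only one called, against 2.91% of all genes called higher at 6 h and 6.32% lower over time in wild type, so the count itself is no result about the list. It stood at 15.3 and 14.8 FPKM in wild type and 14.2 and 23.9 in GdX-deficient spleen at 90 min, then at 1.26 and 2.07 in wild type against 18.3 in the GdX-deficient library at 6 h. It fell over time in wild type (limma adjusted p = 0.00330) and was higher in the GdX-deficient library at 6 h by 2.87 in log2 (limma adjusted p = 0.0145), although the genotypes overlapped at 90 min. Steap3, the ferrireductase of transferrin endosomes, differed by 1.83 in log2 at 6 h (limma adjusted p = 0.0561). Ncoa4, which delivers ferritin for breakdown, differed by 1.30 (limma adjusted p = 0.119).

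Genes of iron-sulfur cluster assembly, which draw on the same mitochondrial iron, had a median genotype difference of -0.29 at 6 h, where all genes had 0.32. Of 15 tested, 1 was called at 6 h, a share near the 3.96% of all genes. Hspa9, the mitochondrial Hsp70 chaperone of cluster transfer, was lower in the GdX-deficient library, at 91.5 FPKM against 316 and 313 in wild type (limma adjusted p = 0.0275). Hspa9 rose over time in wild type from 94.7 and 96.3 FPKM (limma adjusted p = 0.00637), and Isca1, a cluster carrier, fell from 95.4 and 80.9 to 41.3 and 41.4 (limma adjusted p = 0.0228). No gene of these 4 lists was called at 90 min or in the additive fit.

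The genes whose level profile over the 7 libraries was most like that of Alas2, by root mean square difference of centred log2(FPKM + 1) values among 7886 other genes with a mean of at least 5 FPKM, antigen receptor segments and symbols starting with Gm or ending in Rik left out, were Fam46c (0.07), Rhag (0.13), Specc1 (0.17), Dhrs11 (0.18) and Bnip3l (0.18), where the median gene lay at 0.91. Fam46c read 47.2 and 50.6 FPKM in wild type and 94.9 and 72.6 in GdX-deficient spleen at 90 min, then 17.1 and 24.8 against 44.8. To the mean profile of the 9, the closest were Fam210b (0.07), Dnaja4 (0.09), Rhag (0.10), Nusap1 (0.10) and Mxd3 (0.10), with a median of 0.81 over all. Rhag, a membrane protein of the red cell Rh complex and 1 of the 23 red cell markers, was on both lists.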

How the data were processed

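Spleen RNA underwent poly(A) selection or rRNA depletion before BGISEQ-500 sequencing, the labels' protocols giving both. Per the file headers, the authors deposited FPKM values per gene with a column for each library. The submitters' processing notes name HISAT, HISAT2 2.0.4, Bowtie2, RSEM and the build GRCm38.p5, without roles. Filters are not given in the sources used here. Groups follow the sample titles, and p-values measure the spread between these libraries.

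Values were converted to log2(FPKM + 1). The 11378 genes with a mean of at least 1 FPKM, all 9 members among them, entered a limma fit (version 3.58.1, R 4.3.3) of the 4 groups, or of genotype with time as covariate, using trended empirical Bayes, with two-sided p-values adjusted by Benjamini-Hochberg at a threshold of 0.05. The fit was tested on simulated data. Fold changes on this scale understate those of low genes. Depth was estimated from the FPKM steps of low genes with 1 transcript of known length.

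The members and lists were chosen with earlier results of these data known. The text names all members, up to 2 genes of smallest p per list for genotype with time and for time in wild type, and the 5 genes of most similar profile to Alas2 and to the members' mean. From the marker lists only some of these are given, and some genes that the rule selects are not reported here. Ubl4a, Gm44504, Hbb-b1 and B4galt3 were added after their values were seen. Alternatives were another pseudocount, filter, scaling, length trend, replicate block and each library left out.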

Additional observations from a re-analysis of the deposited data

How the results depend on the processing

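The genotype differences at 90 min, at 6 h and over both times, and the time differences in wild type, kept their sign for all 9 genes under every alternative run. The number of the 9 past limma's threshold did not always hold. By genotype at 90 min it was 0, 3 when only the 4 libraries compared were fitted, and 0 to 2 when each library was left out in turn. By genotype at 6 h it was 3, 0 with no filter on low values, 2 with a minimum mean of 5 FPKM or rescaled without globin genes, and 2 to 7 with a library left out. Over both times it was 0, and 0 to 7 with a library left out. Over time in wild type it was 5, 2 with no filter, 8 after quantile normalization, 8 with the length trend removed, 4 with only the 4 libraries compared or rescaled without globin genes, and 1 to 6 with a library left out. Differences between replicates 1 and 2 correlated across genes at 0.77 between wild type at 90 min and wild type at 6 h. The correlation was -0.12 between wild type and GdX-deficient spleen at 90 min. It was 0.08 between GdX-deficient spleen at 90 min and wild type at 6 h. Whether same-numbered libraries are paired is not known, and the main fits, also over time in wild type, used no pairing. With a replicate block the count was 7 by genotype at 6 h (29.7% of all genes called, against 3.96% without the block) and 8 over time in wild type (20.6% against 10.7%), and 0 by genotype at 90 min, also with the numbers crossed, an alternative chosen after seeing the data. Values that reversed were Uros over time in GdX-deficient spleen (0.037 without GdX-deficient replicate 2 of 90 min, in a leave-one-out range of -0.47 to 0.037) and the Alas2 interaction (-0.013 with the length trend removed, and -0.042 to 0.41 with a library left out, negative without that same library or wild-type replicate 1 of 6 h). In each leave-one-out fit a lone library was assumed to vary like the other groups. Without the GdX-deficient library of 6 h, comparisons that use it could not be fitted. Replicates of wild type at 6 h differed with an SD of 0.571 in log2 across genes, against 0.373 for wild type at 90 min, which limits what 2 libraries can show.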

Other observations

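Each of the 9 genes was also set against alpha-globin instead of against all RNA. Alas2 was at 3.29 and 4.98 FPKM per 1000 FPKM of Hba-a1 and Hba-a2 in wild type at 90 min, 6.60 and 7.32 in GdX-deficient spleen at 90 min, 2.64 and 6.77 in wild type at 6 h, and 7.43 in the GdX-deficient library at 6 h. The wild-type pair at 6 h spanned that at 90 min. The ratio of group means, GdX-deficient to wild type, had a median over the 9 genes of 1.72 at 90 min, and from 1.22 to 2.12 with a library left out, an alternative chosen after seeing the data. At 6 h it was 2.13, but 1.44 without wild-type replicate 1 of 6 h and 3.05 without replicate 2. From 90 min to 6 h in wild type no direction held: the median ratio was 1.14 with 6 of 9 above 1, 1.64 with 8 of 9 above 1 without replicate 1 of 6 h, and 0.64 with 1 of 9 above 1 without replicate 2.

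Set against the summed red cell markers, the genotype ratios lay on both sides of 1. The median was 0.97 at 90 min, with 3 of 9 above 1, and from 0.84 to 1.04 with a library left out. It was 0.77 at 6 h, with 2 of 9 above 1, and 0.76 or 0.71 with a wild-type library of 6 h left out. Abcb10 was highest at both times, at 1.22 and 1.39, and the lowest were Urod at 90 min, at 0.63, and Alad at 6 h, at 0.42. In wild type over time the median was 1.33, from 1.26 to 1.36 with a library left out, and Alad had the highest ratio, 2.47. These values are descriptions, and no test was run on them.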
